A study of Mus musculus with 18 samples.

Results

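Calca and Calcb, the calcitonin genes of the mouse, were followed in laser-captured thyroid. They were represented by every gene probe on the array that carried either name or an older one, which gave 2 of 27670 genes and 3 of 41174 gene probes, 2 for Calca and 1 for Calcb. All 3 were among the 19080 probes tested. The 4 groups compared were the central area of dissected thyroid (n = 5 arrays), the peripheral area of dissected thyroid (n = 5), the central area of normal thyroid (n = 5) and the peripheral area of normal thyroid (n = 3). Dissected glands came from mice that had undergone partial thyroidectomy, and normal glands from mice that had not. All tissue was from male C57BL/6 mice, cut from frozen sections of the right or left lobe, and its amplified RNA was labelled with Cy5. Each of the 18 arrays also carried a common reference in Cy3, Ambion Mouse Assorted Total RNA pooled from Swiss Webster testicle, ovary, brain, heart, lung, liver, kidney, thymus, spleen and embryo, with no thyroid listed. The labels give no age, no time after surgery and no link from area to mouse. Areas may therefore share animals, in which case the area tests leave a pairing out. Replicates may also be technical, in which case the p-values given here are too small.

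Calca codes for calcitonin and for the neuropeptide alpha-CGRP, which alternative splicing and polyadenylation produce from 1 transcript. Calcitonin lowers blood calcium and is the product of the C cells, which in rodents lie mainly in the middle of each thyroid lobe, whereas CGRP is a vasodilator of sensory neurons. Calcb codes for beta-CGRP and is known mainly from neurons of the gut.

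The probe sequences are shown because the Calca probes read different transcripts of the gene. In the file descriptions one is for transcript variant 1, which as background is the calcitonin form, and the other for transcript variant 2, the alpha-CGRP form. Each line gives bases 31 to 60 of a 60-base probe, 5′ to 3′, and the capitals mark AATAAA, the usual polyadenylation signal.
Calca variant 1: tagtcttgcttctggaagtgttggttgttt
Calca variant 2: atccAATAAAcatgacagcatggttctggc
Calcb: tataaatgagttaattctgtgtttgtttgc
On build mm7, as in the files, the Calca variant 1 probe (A_51_P290826) lies at chr7:110549383-110549442 on the minus strand. The Calca variant 2 probe (A_52_P154101) lies at chr7:110547755-110547814 on the same strand, with its start 1628 bases away. The Calcb probe (A_51_P406157) lies at chr7:110639085-110639144 on the plus strand. No genome of that build was used, so the exon or untranslated region under each probe was not determined. AATAAA was found in the variant 2 probe and not in the other 2, and in 4.78% of the 41174 probe sequences as written or 8.80% on either strand. The longest run of bases shared by any pair of the 3 probes was 6.

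The share of gene probes with Cy5 well above background ranged between 24.7% and 44.0%. The 4 arrays with the lowest shares had 24.7% to 29.5% against 35.2% to 44.0% on the others. They were dissected central 1 and 2, dissected peripheral 1 and normal peripheral 1, and the differences of the 3 probes and the list counts are also given without these weak arrays. Thyroid origin was checked on thyrocyte markers. Thyroglobulin (Tg) had a log2 ratio of tissue over reference of 0.69 to 3.01 over all arrays, whereas the iodide transporter Slc5a5 was well above background on no array. No 2 arrays held identical values.

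By the ratio to the reference both Calca probes were higher in the central than in the peripheral area. The Calcb probe lay near the detection limit in every group. Calca RNA was not scarce in the periphery. In Cy5 alone the variant 1 spot ranked 6 to 12 from the brightest gene probe on dissected peripheral and 6 to 7 on normal peripheral arrays. The variant 2 spot was well above background in Cy5 on all 18 arrays. The variant 1 probe had log2 ratios of -0.57, 3.88, 3.82 and 3.05 on dissected central 2 to 5 and -2.39, -2.05, -2.39, -1.72 and -1.20 on dissected peripheral 1 to 5. Its spot on dissected central 1 was non-uniform and was left out. It had 3.17, 3.28, 3.96, 2.66 and 3.01 on normal central 1 to 5 and -0.33, -0.97 and -0.55 on normal peripheral 1 to 3. Central and peripheral arrays did not overlap within either state, but dissected central 2 stood far below the other dissected central arrays, within the range of normal peripheral.

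The variant 2 probe had log2 ratios of -0.48, -2.32, 1.38, 1.00 and 0.76 on dissected central 1 to 5 and -4.49, -3.54, -4.58, -3.32 and -4.82 on dissected peripheral 1 to 5. It had 0.96, 0.82, 1.73, 1.38 and 0.52 on normal central 1 to 5 and -3.52, -3.03 and -3.33 on normal peripheral 1 to 3. Here too the areas did not overlap within a state, and dissected central 1 and 2, both weak arrays, were the lowest of their group.

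**Figure D1:**
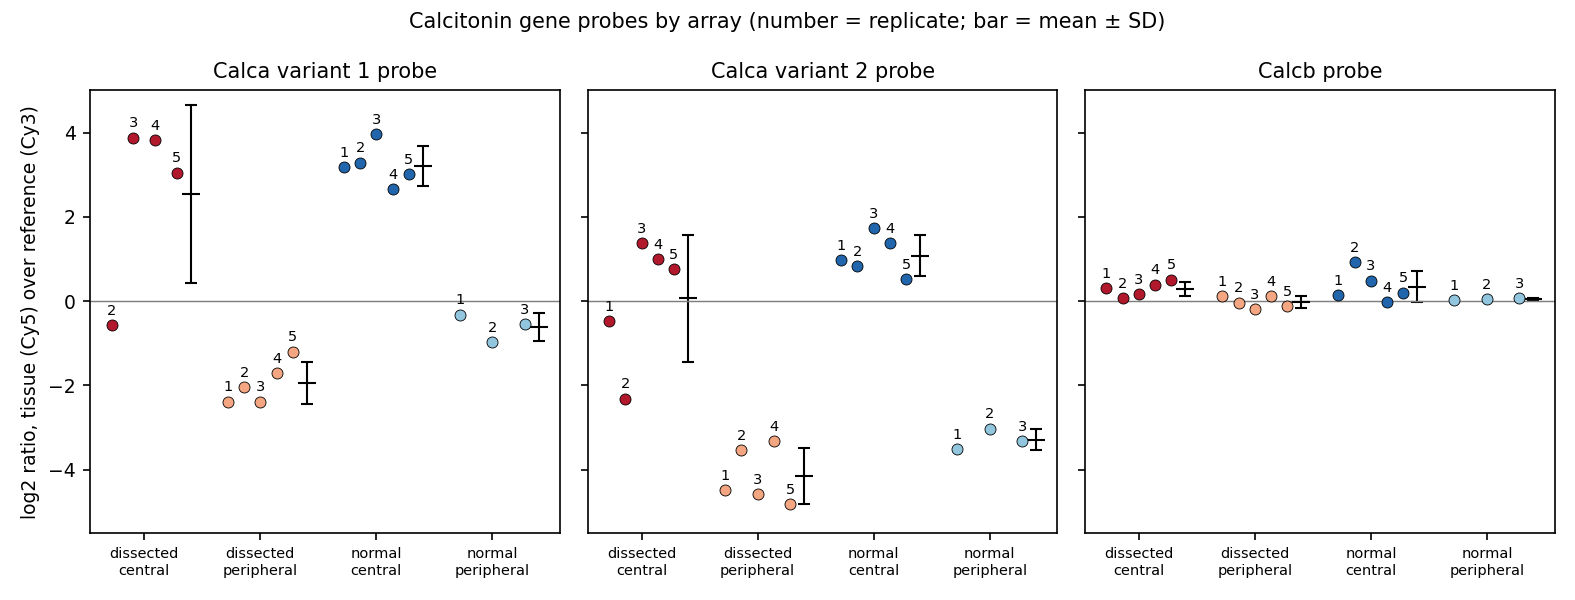
Log2 ratio of tissue (Cy5) over reference (Cy3) for each probe, 1 point per array with its replicate number, and the group mean ± SD as a bar. Both Calca probes separate the central from the peripheral arrays in each state, with dissected central 2 low for its group at -0.57 and -2.32, while Calcb stays between -0.19 and 0.93.

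By group mean the order was the same for both Calca probes. The variant 1 probe averaged 2.55 ± 2.11 in dissected central (SD, n = 4), -1.95 ± 0.50 in dissected peripheral (n = 5), 3.22 ± 0.48 in normal central (n = 5) and -0.62 ± 0.33 in normal peripheral (n = 3). The variant 2 probe averaged 0.07 ± 1.50 in dissected central, -4.15 ± 0.67 in dissected peripheral, 1.08 ± 0.47 in normal central (SD, n = 5 each) and -3.29 ± 0.25 in normal peripheral (n = 3). Normal central was thus highest, followed by dissected central, normal peripheral and dissected peripheral. The neighbours dissected central and normal central overlapped for both probes. Dissected and normal peripheral arrays overlapped for variant 2 but not for variant 1, and neither difference passed the test described below.

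The first comparison asked how the central area of dissected thyroid differs from its periphery. Both Calca probes rose in the central area, and the Calcb probe did not pass the test, so 2 of the 3 members were called where 0.461% of all probes were (88 of 19080, all higher in the central area). The variant 1 probe was 22.6-fold higher, a log2 difference of 4.50 (SE 0.66, limma adjusted p = 0.00362), which was the largest of the 19080 probes. In the tissue channel alone it was 2.34-fold higher, 128 in the order of size, as described with the channels. The variant 2 probe was 18.6-fold higher, a log2 difference of 4.22 (SE 0.53, adjusted p = 0.000912). As the tissue was bulk RNA of captured areas, more C cells and more Calca RNA per cell cannot be told apart.

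Within slides the variant 1 probe was higher in the central area on 4 of 4 slides, by 1.48 to 6.27, and the variant 2 probe on 5 of 5, by 1.22 to 5.96. On scan days 1 and 2 the differences were 5.91 and 3.12 for variant 1 and 5.14 and 3.60 for variant 2. With slide as a block they were 4.45 (adjusted p = 0.00579) and 4.22 (adjusted p = 0.00374). Without the 4 weak arrays they were 5.42 and 5.11, and without dissected central 2 alone 5.53 and 4.82, all called. On the 9 arrays of dissected thyroid with a variant 1 value, fitted alone, the difference of 4.50 had an adjusted p of 0.0762.

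In normal thyroid both Calca probes again rose in the central area, 2 of the 3 members against 0.215% of all probes (41 of 19080, all higher). The variant 2 probe was 20.7-fold higher (log2 4.37, SE 0.61, adjusted p = 0.00793), the largest difference of the 19080 probes, and the variant 1 ratio was higher by 3.83 log2 units (SE 0.71, adjusted p = 0.0425). That ratio gives no exact fold, since 2 of the 5 normal central spots were saturated in Cy5, and in the tissue channel alone variant 1 was 2.06-fold higher, 507 in the order of size. Both were higher in the central area on 3 of 3 slides, variant 1 by 3.21 to 4.26 and variant 2 by 3.85 to 4.71. On scan days 1 and 2 variant 1 differed by 3.86 and 3.80, and variant 2 by 4.88 and 4.04. Without the weak arrays the differences were 3.98 for variant 1 and 4.26 for variant 2, both called.

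The variant 1 call in normal thyroid lay close to the threshold. It was lost with slide as a block (3.53, adjusted p = 0.117), with the 2 saturated spots left out (3.77, adjusted p = 0.116), with no filter on dim probes (adjusted p = 0.134), and without any 1 of the 8 arrays compared or of the 5 dissected peripheral arrays (3.65 to 3.98, adjusted p up to 0.186). The variant 2 call held with slide as a block (4.27, adjusted p = 0.0428) and was lost without normal peripheral 2 (4.51, adjusted p = 0.0706) or normal peripheral 3 (4.36, adjusted p = 0.0527).

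A ratio holds 2 channels, and the channels of the Calca probes behaved differently. In tissue, the variant 2 spot had Cy5 intensities of 5630, 1612, 63697, 65669 and 62643 on dissected central 1 to 5 and 427, 3772, 1552, 3373 and 2028 on dissected peripheral 1 to 5. It had 57199, 38955, 110795, 89244 and 74017 on normal central 1 to 5 and 561, 3939 and 2274 on normal peripheral 1 to 3. Every central array but dissected central 2 was thus brighter in tissue than all peripheral arrays, and dissected central 2 lay among them. Its reference signal was 8088 to 21096 on dissected central, 8662 to 29016 on dissected peripheral, 16569 to 21592 on normal central and 25623 to 27587 on normal peripheral arrays. The variant 2 value in Cy5 came from a scan at low gain on 5 of 5 normal central and 3 of 5 dissected central arrays. On no peripheral array did it do so. The scan used thus goes with the area, and its part in the difference was not tested.

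For variant 1 the reference channel differed between areas as well as the tissue channel. Its Cy5 intensities were 404387, 144101, 587446, 442440 and 524550 on dissected central 1 to 5 and 61412, 157728, 150092, 181932 and 303809 on dissected peripheral 1 to 5. They were 482538, 439642, 634193, 633416 and 519675 on normal central 1 to 5, saturated on arrays 3 and 4, and 117591, 227292 and 216424 on normal peripheral 1 to 3. Tissue arrays of the areas overlapped in dissected but not in normal thyroid. In Cy3, which held the same reference on every array, the spot averaged 75852 ± 79112 on dissected central and 332596 ± 60791 on dissected peripheral arrays (SD, n = 5 each). It averaged 32862 ± 12243 on normal central (n = 5) and 385796 ± 93860 on normal peripheral arrays (n = 3). Reference intensities of the areas did not overlap in either state and were lower on the central arrays.

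**Figure D2:**
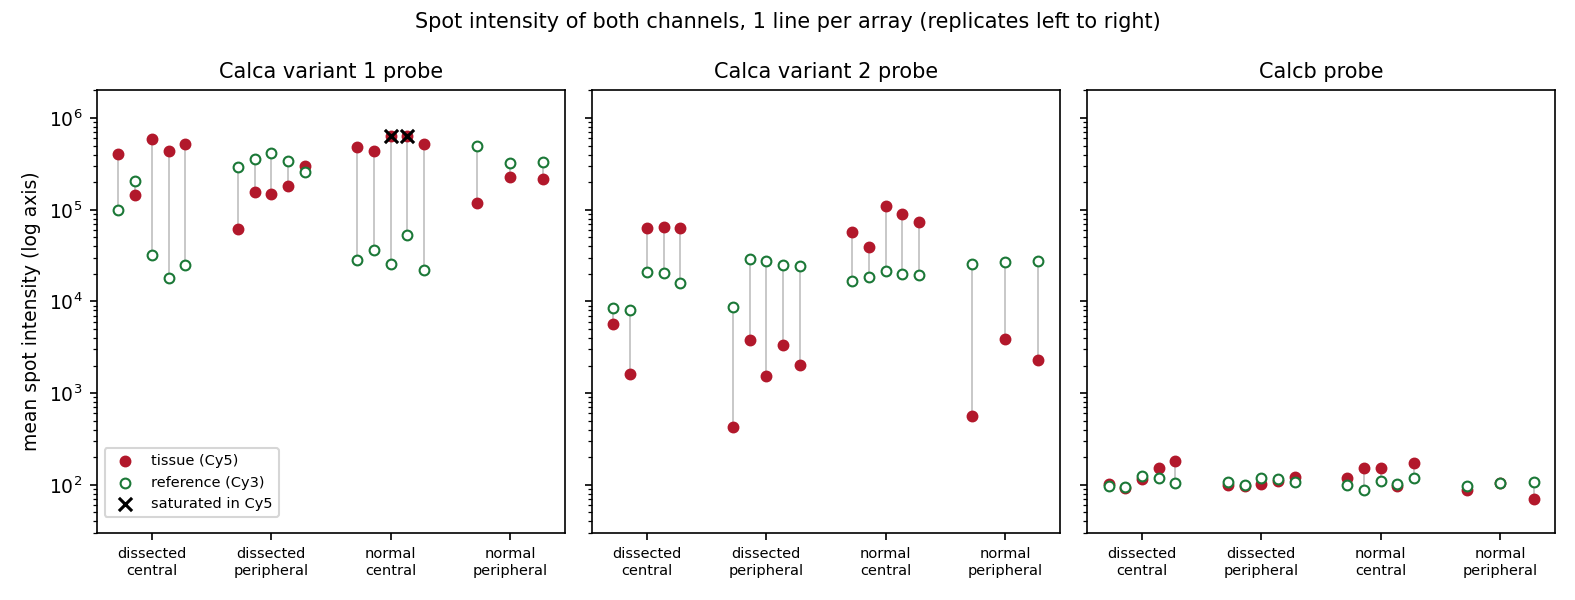
Mean spot intensity on a log axis in tissue (Cy5, filled) and reference (Cy3, open), with 1 vertical line per array and replicates running from left to right; crosses mark saturated Cy5 spots. For variant 2 mainly the tissue signal moves with the area, though its reference signal is lower on normal central than on normal peripheral arrays. For variant 1 the reference signal moves strongly as well. Both Calcb signals stay between 70.7 and 182 intensity units.

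Each channel was also tested alone after quantile normalization between arrays. In Cy5 the variant 2 probe rose by 3.93 in dissected (SE 0.52, adjusted p = 0.00148) and by 3.95 in normal central thyroid (SE 0.60, adjusted p = 0.00988). In Cy5 the variant 1 probe rose by 1.23 in dissected (SE 0.17, adjusted p = 0.00276) and 1.05 in normal central thyroid (SE 0.18, adjusted p = 0.0233). In all, 0.241% of probes were called in Cy5 in dissected and 0.299% in normal thyroid. Variant 2 thus kept most of its ratio difference in the tissue channel, and variant 1 less than 1.3 log2 units.

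In Cy3 the variant 1 probe differed by -2.38 in dissected (95% interval -3.45 to -1.31, adjusted p = 1.00) and -2.70 in normal thyroid (95% interval -3.87 to -1.54, adjusted p = 0.877), the largest of the 19080 probes by size in both. The variant 2 probe differed in Cy3 by -0.41 in dissected (95% interval -0.61 to -0.21) and -0.37 in normal thyroid (95% interval -0.60 to -0.14). Limma called 0 probes in Cy3 in either comparison, with 136 and 1070 at an unadjusted p under 0.05. Without dissected central 2, whose variant 1 spot was bright in Cy3, the variant 1 differences in Cy3 were -3.17 (adjusted p = 2.53e-05) in dissected and -2.70 (adjusted p = 0.000227) in normal thyroid, both called. The part of the reference channel in the ratio differences of variant 1 was not tested.

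Quantile values of variant 1 have a ceiling, because it was the brightest gene probe in Cy5 on 8 central arrays and in Cy3 on all 8 peripheral arrays and dissected central 2. Its quantile values had an SD of 0 in both peripheral groups in Cy3, and in normal central in Cy5. The ceiling thus lowers the spread behind its single-channel p-values above. These p-values may be too small, also those without dissected central 2. Scaling each array by its 75th percentile, chosen after seeing the data, removed that ceiling. The Cy5 difference of variant 1 was then 1.26 in dissected (adjusted p = 0.0441) and 0.71 in normal thyroid (adjusted p = 0.551), and the Cy3 difference -3.02 in dissected (adjusted p = 0.992) and -3.56 in normal thyroid (adjusted p = 0.644).

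**Figure D3:**
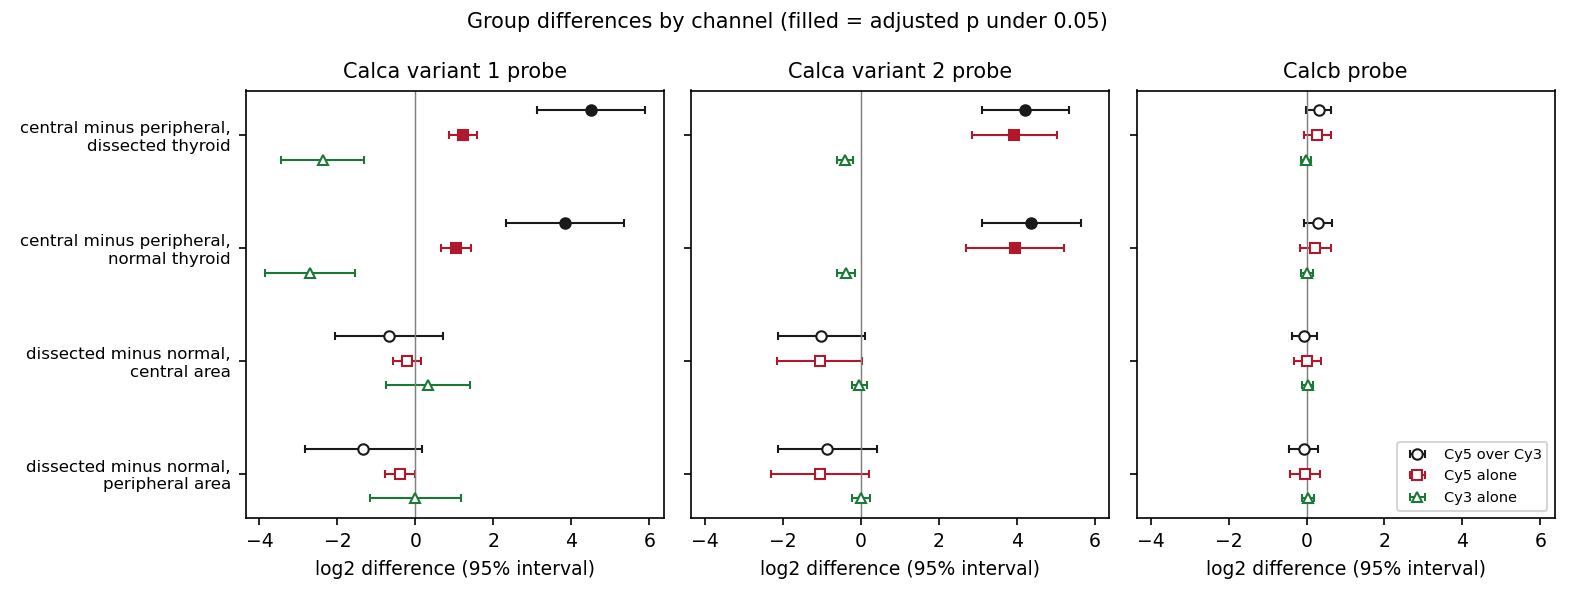
Log2 differences between groups with 95% intervals for the ratio (black), tissue alone (red) and reference alone (green), filled where the adjusted p was under 0.05. Area differences of variant 2 lie mainly in the tissue channel (3.93 and 3.95), with smaller ones in the reference channel (-0.41 and -0.37). Those of variant 1 lie to a larger extent in the reference channel (-2.38 and -2.70), and no difference after surgery is filled.

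Whether the variants responded equally was tested on the variant 1 minus variant 2 log2 ratio within each array. That difference averaged 2.34 ± 0.45 (SD, n = 4) in dissected central, 2.20 ± 0.85 (n = 5) in dissected peripheral, 2.13 ± 0.49 (n = 5) in normal central and 2.67 ± 0.57 (n = 3) in normal peripheral arrays. As the probes differ in hybridization, its size is no splice ratio. In the ratio of both channels it shifted between areas by 0.14 in dissected (two-sided exact permutation p = 0.794) and -0.54 in normal thyroid (exact p = 0.25). After surgery it shifted by 0.21 in the central (exact p = 0.540) and -0.47 in the peripheral area (exact p = 0.393). The 4 comparisons had adjusted p of 0.720 or more. The smallest p that the arrays allowed was 0.00794 for 4 against 5 and 0.0179 for 5 against 3, so a single comparison of 5 against 3 could not pass after adjustment over 4.

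In the tissue channel alone, an alternative chosen after seeing the data, the response between areas passed as unequal under quantile but not under 75th percentile scaling. In Cy5 the central minus peripheral difference of variant 1 minus variant 2 was -2.84 log2 units in dissected thyroid, with 3.77 ± 1.41 (SD, n = 4) in central and 6.61 ± 0.88 (n = 5) in peripheral arrays (exact p = 0.0238). In normal thyroid it was -2.90, with 3.05 ± 0.33 (n = 5) in central and 5.95 ± 0.18 (n = 3) in peripheral arrays (exact p = 0.0179). Both had an adjusted p of 0.0476 over 4 comparisons. With 75th percentile scaling the differences were -2.58 and -3.76 in dissected and normal thyroid, both with an adjusted p of 0.0635. The exact permutation p was then 0.0317 in dissected and again 0.0179 in normal thyroid, the smallest that 5 against 3 arrays allow. The adjusted p of normal thyroid thus moved only because that of dissected thyroid did. The ceiling of variant 1 under quantiles and its 2 saturated spots move with this difference, and their part in it was not tested. After surgery the differences in Cy5 were 0.72 in the central and 0.65 in the peripheral area, both with an adjusted p of 0.317 by the exact permutation test.

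The second question was what partial thyroidectomy does in each area. No Calca or Calcb probe passed the test in either area. In the central area the log2 difference of dissected minus normal was -0.67 for variant 1 (95% interval -2.06 to 0.71, limma adjusted p = 0.999) and -1.01 for variant 2 (95% interval -2.12 to 0.09, adjusted p = 0.974). Limma called 0 of 19080 probes there (0% called), with 998 at an unadjusted p under 0.05. Without dissected central 2 the differences were 0.37 for variant 1, with its sign turned, and -0.42 for variant 2. Without the 4 weak arrays they were 0.37 and -0.04. By slide, variant 1 was higher in the dissected gland on 2 of 4 slides (-3.86 to 1.16) and variant 2 on 1 of 5 (-3.14 to 0.24), and the lowest value of both was that of the slide with dissected central 2. On scan days 1 and 2 variant 1 differed by 0.54 and -1.92, and variant 2 by -0.36 and -1.45.

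In the peripheral area both Calca probes had lower means after surgery without passing the test. Variant 1 differed by -1.33 (95% interval -2.84 to 0.18, adjusted p = 0.678) and variant 2 by -0.86 (95% interval -2.14 to 0.42, adjusted p = 0.771). Limma called 0 probes (0% called), with 1467 at an unadjusted p under 0.05. Variant 1 was lower in the dissected gland on 3 of 3 slides, by 1.08 to 2.06 in size, and variant 2 on 2 of 3, with a range of -0.97 to 0.01. On scan days 1 and 2 variant 1 differed by -1.50 and -1.23 and variant 2 by -0.62 and -1.01. In Cy5 alone variant 1 differed by -0.39 (95% interval -0.78 to -0.01, adjusted p = 0.600) and variant 2 by -1.05 (95% interval -2.30 to 0.21, adjusted p = 0.634). The ratio differences without the 4 weak arrays were -1.08 for variant 1 and -0.89 for variant 2, neither called. With 3 normal peripheral arrays, the intervals of both ratio differences reach past -2 log2 units.

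The change after surgery was then compared between the areas. The central change minus the peripheral change was 0.66 for variant 1 (95% interval -1.39 to 2.71, adjusted p = 0.922) and -0.16 for variant 2 (95% interval -1.85 to 1.54, adjusted p = 0.984). It was 1.45 and 0.85 without the 4 weak arrays for variants 1 and 2, neither called and variant 2 with its sign turned. Limma called 0 of 19080 probes, with 1053 at an unadjusted p under 0.05. An F test among the 4 groups called variant 1 (adjusted p = 0.000903) and variant 2 (adjusted p = 9.68e-05) but not Calcb (adjusted p = 0.674), where 0.818% of probes were called.

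Calcb was well above background in Cy5 on 4 arrays, dissected central 4 and 5 and normal central 2 and 3. It was so on none of the 8 peripheral arrays, and in Cy3 on none of the 18. Its Cy5 intensities were 101, 91.3, 115, 152 and 182 on dissected central 1 to 5 and 101, 95.9, 101, 111 and 123 on dissected peripheral 1 to 5. They were 120, 155, 153, 96.7 and 175 on normal central 1 to 5 and 88.9, 104 and 70.7 on normal peripheral 1 to 3. The highest values were thus central in both states, but the groups overlapped in dissected thyroid and in normal thyroid.

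Its log2 ratios were 0.30, 0.08, 0.16, 0.39 and 0.51 on dissected central 1 to 5 and 0.12, -0.04, -0.19, 0.12 and -0.12 on dissected peripheral 1 to 5. They were 0.14, 0.93, 0.48, -0.02 and 0.19 on normal central 1 to 5 and 0.02, 0.05 and 0.07 on normal peripheral 1 to 3. The area difference was 0.31 in dissected (95% interval -0.01 to 0.63, adjusted p = 0.717) and 0.29 in normal thyroid (95% interval -0.08 to 0.66, adjusted p = 0.720). Within slides Calcb was higher in the central area on 5 of 5 slides of dissected thyroid, by 0.11 to 0.63, and on 2 of 3 of normal thyroid, with a range of -0.10 to 0.88. Since no peripheral array measured it, the level bound was taken as central Cy5 over the lowest signal well above background on each peripheral array, after loess and quantile scaling of mean intensities. By that bound the dissected central mean was 1.05-fold higher, with 2 of 5 central arrays measuring Calcb. The groups overlapped and the interval of the ratio difference includes 0, so no direction is given. In normal thyroid none is given either, since the Cy5 difference was 0.22 by quantiles and -0.18 with 75th percentile scaling. Without the 4 weak arrays the ratio differences between areas were 0.41 in dissected and 0.28 in normal thyroid, and 0.01 and -0.12 after surgery in the central and peripheral area, none called. After surgery it differed by -0.06 in the central (95% interval -0.38 to 0.26, adjusted p = 0.999) and -0.07 in the peripheral area (95% interval -0.44 to 0.30, adjusted p = 0.955).

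Other C cell markers moved with Calca. The list held 13 genes, Calca included, of which 10 were measured. Calca is among the 10 and among those called in both states, so the counts and medians below are not independent of it. In the central area 8 of the 10 rose in dissected thyroid (median log2 difference 2.61) and 6 of the 10 in normal thyroid (median 2.57), each with 10 of 10 above 0. Over all 14663 genes 0.539% were called in dissected and 0.259% in normal thyroid, with medians of -0.00217 and 0.0135. Without the 4 weak arrays 8 of the 10 were called in dissected and 7 in normal thyroid, but with no filter on dim probes 5 and 1, and with the replicate number as a block 8 and 2. Members such as Scg2, well above background on no peripheral array, passed the filter only through the central ones. Sst was well above background on no dissected peripheral array. The counts above include such members, for which a higher central value is favoured by the filter and is no support. The granin Scg3 rose by 3.83 in dissected (adjusted p = 0.000433) and by 3.36 in normal thyroid (adjusted p = 0.0142). Chgb, another granin, rose by 3.81 in dissected (adjusted p = 0.000726) and by 3.82 in normal thyroid (adjusted p = 0.00793). Chga, a further granin, rose by 3.50 (adjusted p = 0.00382) in dissected thyroid, and its 2.90 in normal thyroid had an adjusted p of 0.0689. Of the defining markers, Syp and Casr were well above background on no array and Ret on 1. After surgery 0 of the 10 passed the test, with medians of -0.73 in the central and -0.87 in the peripheral area and 0 of 10 above 0 in either, against 48.7% and 51.0% of all genes. The central median without the 4 weak arrays was -0.09, with 3 of 10 above 0, and the peripheral one -0.68, with 1 of 10. Without dissected central 2 alone the central median was -0.27.

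The arrays low for Calca were low for these markers too. Over the 9 measured markers other than Calca, the mean log2 ratio was -0.12, -1.40, 0.59, 0.30 and 0.70 on dissected central 1 to 5 and -2.61 to -2.18 on dissected peripheral arrays. It was 0.53 to 1.36 on normal central and -1.94 to -1.05 on normal peripheral arrays. Their summed Cy5 intensity was 3976 to 112559 on dissected central, 2068 to 9142 on dissected peripheral, 73301 to 178106 on normal central and 3468 to 8030 on normal peripheral arrays. Dissected central 2, with the 3976, lay within the range of the peripheral arrays on both measures. The part of C cell content in the Calca differences was not tested.

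Neurons are the other known source of CGRP. Of 7 sensory and autonomic neuron markers 3 were measured and 0 were called in any comparison. Peripherin (Prph) and tyrosine hydroxylase (Th) were well above background on no array. The summed Cy5 intensity of the 3 was 329 to 763 on dissected central, 368 to 605 on dissected peripheral, 393 to 869 on normal central and 334 to 376 on normal peripheral arrays. Of 4 parathyroid markers 2 were measured and 0 called, with summed Cy5 intensities of 196 to 801 on dissected central, 249 to 823 on dissected peripheral, 271 to 58922 on normal central and 254 to 346 on normal peripheral arrays. Parathyroid hormone (Pth) was well above background on 1, 1, 2 and 2 arrays of these groups. The summed intensity of 58922 was on normal central 3 alone, the other normal central arrays reaching at most 1209. That array also had the highest normal central log2 ratios of both Calca probes, 3.96 for variant 1 and 1.73 for variant 2. Of 8 thyrocyte markers 7 were measured and 0 called. The lists for ultimobranchial and basal epithelium (4 of 4 measured), skeletal muscle (3 of 4) and fat (4 of 4) held 0 called genes in any of the 4 comparisons.

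Genes around calcitonin were counted by role. Among 5 peptides of the calcitonin family 4 were measured, and Calca alone was called in either area comparison. Adrenomedullin (Adm), a vasodilator peptide, differed between areas by -0.35 in dissected (adjusted p = 0.656) and 0.25 in normal thyroid (adjusted p = 0.787), and amylin (Iapp), a peptide of beta cells, by 0.25 in dissected (adjusted p = 0.838) and -0.10 in normal thyroid (adjusted p = 0.949). Among 6 receptor genes 4 were measured and 0 were called. Calcr, the calcitonin receptor, was well above background on 1 dissected central and 1 normal central array, too few to be tested. Calcrl, the receptor of CGRP and adrenomedullin, was measured on all 18 arrays and differed between areas by 0.13 in dissected (adjusted p = 0.961) and 0.25 in normal thyroid (adjusted p = 0.883).

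Of 7 genes listed around prohormone processing, all 7 were measured, and 2 of them, both prohormone convertases, rose in the central area of both states by their brightest probe. Pcsk2 rose by 3.40 in dissected (SE 0.42, adjusted p = 0.000912) and 3.08 in normal thyroid (SE 0.49, adjusted p = 0.0199). Pcsk1 rose by 2.98 in dissected (SE 0.42, adjusted p = 0.00279) and 2.45 in normal thyroid (SE 0.49, adjusted p = 0.0475), but its second probe gave 0.54 in dissected and -0.16 in normal thyroid, whereas that of Pcsk2 gave 2.87 and 2.71. The list median was 0.95 in dissected and 1.27 in normal thyroid. Cpe, the carboxypeptidase that trims after cleavage, differed by 1.46 in dissected (adjusted p = 0.196) and 1.92 in normal thyroid (adjusted p = 0.156). Pcsk1n, the precursor of a convertase inhibitor, differed by 0.95 in dissected (adjusted p = 0.395) and 0.52 in normal thyroid (adjusted p = 0.793). Pam, which amidates the mature peptide, differed by -0.10 in dissected (adjusted p = 0.976) and 0.54 in normal thyroid (adjusted p = 0.742).

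Among 12 genes tied to Calca splicing or its regulators 8 were measured. Elavl4, a neuronal RNA-binding protein, was called in dissected thyroid (adjusted p = 0.00845) and not in normal thyroid (adjusted p = 0.189). It was well above background on 4 of 5 dissected central, 0 of 5 dissected peripheral, 5 of 5 normal central and 0 of 3 normal peripheral arrays, so it passed the filter only through the central arrays. Bounded as for Calcb, it was at least 4.44-fold higher in dissected and at least 3.59-fold higher in normal central thyroid. The other 7 lay between -0.20, of the splicing factor Tra2b, and 0.33, of Tia1, in dissected thyroid, the list median being 0.06 in dissected and 0.13 in normal thyroid. Among 7 factors of the Calca enhancer 6 were measured, and Foxa2, a forkhead factor of endoderm, rose by 3.14 in dissected (SE 0.44, adjusted p = 0.00279) and 3.05 in normal thyroid (SE 0.51, adjusted p = 0.0248). Foxa1, a second forkhead factor, differed by 0.56 in dissected thyroid (adjusted p = 0.250) and did not pass in normal thyroid (adjusted p = 0.467), where no peripheral array measured it. Nkx2-1, which thyrocytes and C cells both use, differed by -0.18 in dissected (adjusted p = 0.943) and 0.12 in normal thyroid (adjusted p = 0.953). The list median was 0.38 in dissected and 0.43 in normal thyroid.

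Of 8 genes of calcium sensing and hormone release 6 were measured. Snap25, a vesicle fusion protein, rose by 2.05 in dissected (SE 0.32, adjusted p = 0.00430) and 2.09 in normal thyroid (SE 0.37, adjusted p = 0.0293), and its second probe gave 1.80 in dissected thyroid. The calcium-sensing receptor Casr was well above background on no array. The list median was 0.15 in dissected and 0.09 in normal thyroid. Without the 4 weak arrays the counts of these lists in the area comparisons stayed the same, except for the splicing list in normal thyroid, with 1 called in place of 0. After surgery 0 genes of any of these lists passed the test in either area, as for the probes as a whole.

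**Figure D4:**
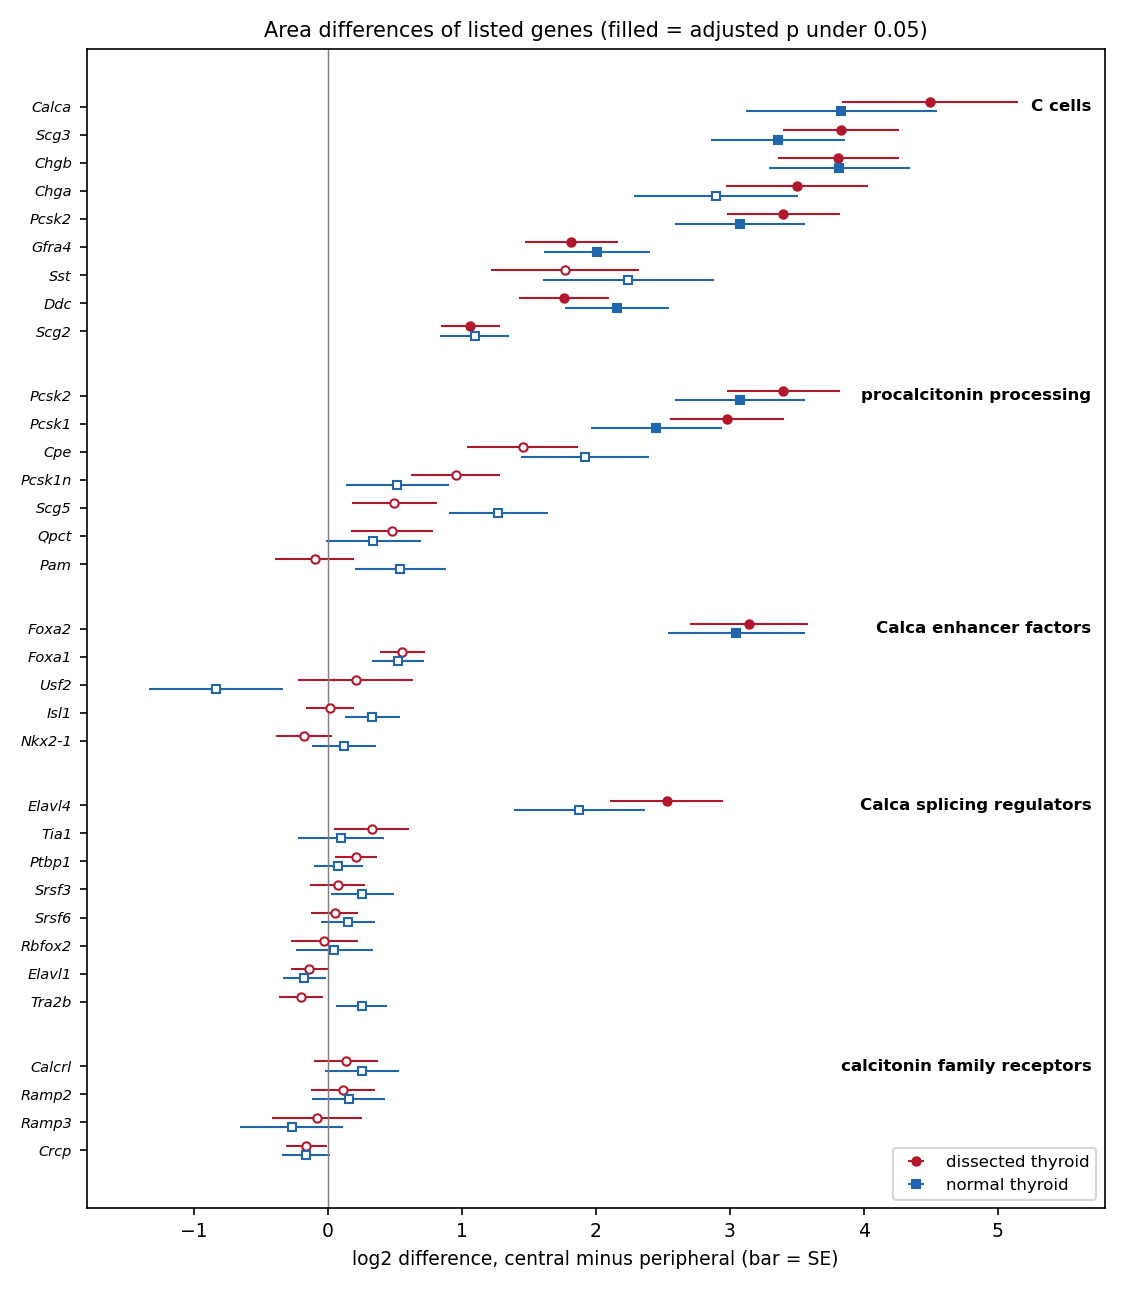
Central minus peripheral log2 differences (bar, SE) of measured members of 5 gene lists, 1 gene not shown, in dissected (red circles) and normal thyroid (blue squares), filled where the adjusted p was under 0.05. The C cell markers shown lie from 1.07 to 4.50, the highest being Calca itself by the ratio of its variant 1 probe. In tissue alone that probe differed by 1.23 in dissected and 1.05 in normal thyroid. In the processing, enhancer and splicing lists Pcsk2, Pcsk1, Foxa2 and Elavl4 carry the filled symbols, and the receptors stay near 0.

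The genes most like Calca over the arrays were found by the root mean square difference between centred log2 ratio profiles. For both Calca probes they were the same 5 of 14663 genes in the same order, namely Chgb, Cxcl13, Scg3, Dner and Pcsk2. For variant 1 the difference was 0.456, 0.544, 0.566, 0.646 and 0.672 over 17 arrays, against a median of 2.45 over all genes. For variant 2 it was 0.420, 0.464, 0.674, 0.684 and 0.728 over 18 arrays, against a median of 2.40. Chgb and Scg3 are granins, Pcsk2 a convertase, Cxcl13 a chemokine that attracts B cells and Dner a transmembrane protein known from neurons. As arrays of 1 area share the area, this likeness describes mainly the split between areas.

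The same split was seen array by array in the closest profile. Chgb had log2 ratios of -0.13, -2.04, 1.29, 1.01 and 0.96 on dissected central 1 to 5 and -4.22, -3.27, -3.92, -3.25 and -3.30 on dissected peripheral 1 to 5. It had 0.64, 1.09, 1.49, 1.34 and 0.99 on normal central 1 to 5 and -2.61, -2.76 and -2.75 on normal peripheral 1 to 3. Like both Calca probes it was low on dissected central 2. The levels of Cxcl13 on dissected central 1 to 5 were -0.40, -1.91, 0.81, 0.65 and 0.94, with the same array lowest.

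**Figure D5:**
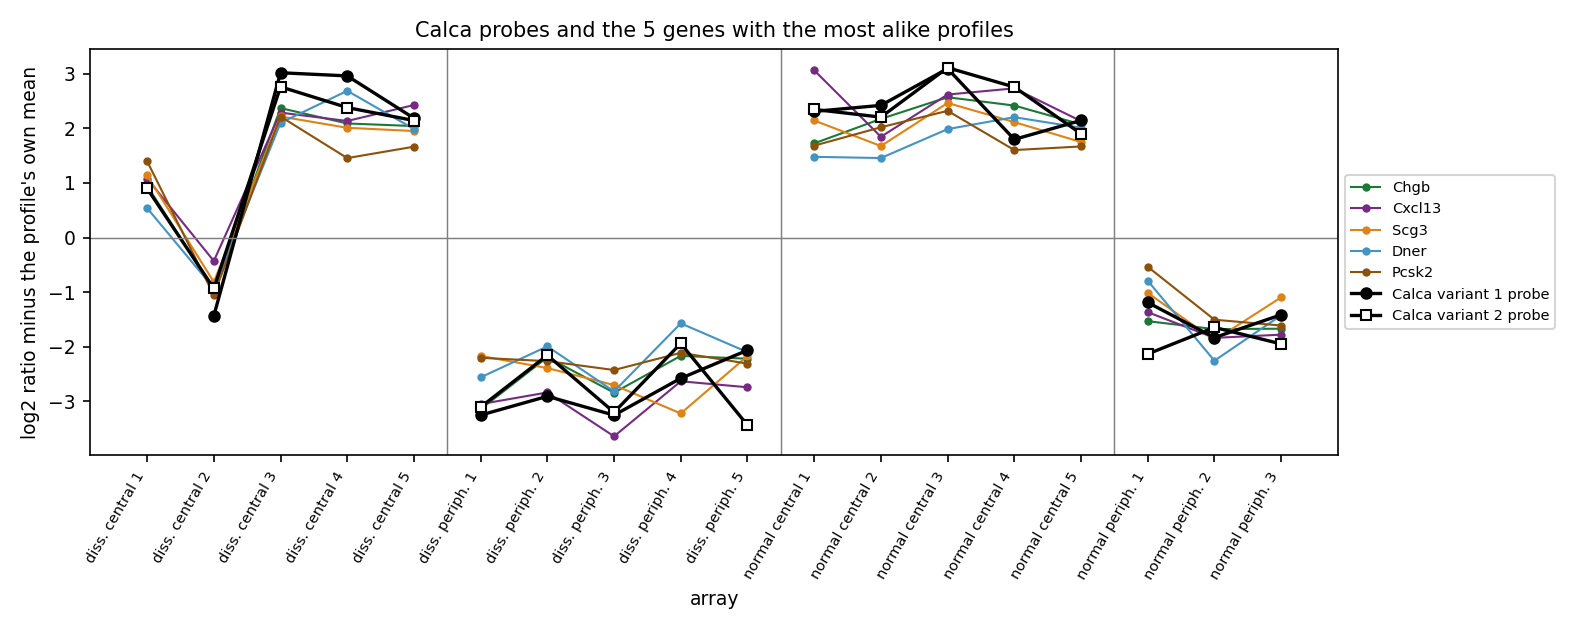
Log2 ratio minus the profile's own mean on each array, grouped by condition, for both Calca probes (black) and the 5 genes with the most alike profiles (colours). All 7 profiles are high on central and low on peripheral arrays, and all drop on dissected central 2; the variant 1 probe has no value on dissected central 1.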

How the data were processed

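RNA of 18 captured thyroid areas was measured on 2-colour Agilent arrays with tissue in Cy5 and a common reference in Cy3, without dye swaps. Per the file headers, the deposited scanner files hold spot and local background intensity from Feature Extraction 9.5.1.1 (8.5.1.1 in the submitters' processing notes), read from scans at high and low gain. Per the file headers, the processed intensity was background-subtracted, detrended and dye-normalized, and the log10 ratio is that of processed Cy5 over Cy3. Flags for background, saturation, uniformity and controls in the deposited files were used as given. The authors also deposited a table of linear ratios, whose processing is not given in the sources used here. All its 40934 probes matched the scanner files. Its centred log values correlated at 0.995 to 1.00 with the centred log10 ratios, which settled direction and scale. Its column medians were 0.871 to 1.06, and 89.2% of probes had a median over arrays within 0.05 of 1, so it appeared centred per probe.

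Of 45018 spots per array 1639 were controls. Mean intensities were corrected with normexp (offset 50) and normalized by loess, with controls at weight 0 and non-uniform spots left out. A probe was kept if 3 or more arrays had its Cy5 well above background. Limma 3.58.1, in R 4.3.3, fitted the 4 group means on the 18 arrays together (data.table version 1.17.8), with Benjamini-Hochberg adjustment over 19080 probes and calls at an adjusted p under 0.05. Single channels were quantile-normalized. The fit was tested on simulated data. The number of arrays limits the precision.

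Genes were named through a RefSeq table of GRCm38.p6, 22951 probes by accession, 6659 by current and 3109 by older symbol, and 8455 kept the name in the files. For other genes the probe with the highest mean intensity stood for the gene, giving 14663 genes. In each list the text names up to 5 members called between areas, by smallest p in dissected thyroid, and some of the 3 uncalled ones with the smallest p, and for likeness the 5 nearest genes. Genes with values named beyond that rule, such as Nkx2-1, Pam, Calcr and Slc5a5, were chosen after their values were seen. The values of 1 listed gene are not reported here, though list counts and medians include it. Members and lists were chosen with earlier results of these data known.

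Same-numbered areas were not taken as pairs, since the labels tie no number to an animal. Of 16 same-number pairs of deviations 7 correlated above 0.1. In dissected thyroid 4 of 5 did, and 5 of 5 correlated best with their own number, so pairing there is not excluded. Slides and scan days were read from the file headers. Arrays with the same number shared a slide, except normal peripheral 3. The slide and replicate blocks are therefore nearly the same check, and number and slide cannot be told apart. Alternatives covered background correction, normalization, filters, flags, channels, blocks, the arrays in the fit and the deposited table.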

Additional observations from a re-analysis of the deposited data

How the results depend on the processing

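The limits of these results are the few peripheral arrays of normal thyroid, the dim weak arrays, saturation of the variant 1 spot and the signal of Calcb near background. Of 987 member values under alternatives 54 changed sign against the main value, and 1 of these was called, the variant 1 minus variant 2 difference between areas of dissected thyroid, which was 0.14 in the ratio and -2.84 in Cy5 alone. In normal thyroid it was -0.54 in the ratio and -2.90 in Cy5 alone, where it passed the test. Over the tested alternatives of the ratio, leaving out single arrays aside, the area difference was 4.07 to 5.11 for variant 2 and 4.24 to 5.42 for variant 1 in dissected thyroid, and 4.21 to 5.14 and 3.53 to 4.50 in normal thyroid. In Cy5 alone the alternatives gave 3.58 to 3.93 for variant 2 and 1.19 to 1.49 for variant 1 in dissected thyroid, and 3.76 to 4.47 and 0.71 to 1.1 in normal thyroid. Calcb was called under none. The replicate number as a block left variant 1 at 3.60 in normal thyroid (adjusted p = 0.133) and at 0.96 in Cy5 alone (adjusted p = 0.0960), called 5 probes in normal thyroid, and ended no other call of a member. Of 16 same-number pairs 11 correlated best within the pair.

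The variant 1 call in normal thyroid was lost at 3.83 with no filter on dim probes, 3.77 without saturated spots and 3.53 with the slide block. In Cy5 alone it was lost at 1.1 after loess and Aquantile (adjusted p = 0.156) and at 0.71 after 75th percentile scaling. In dissected thyroid the variant 1 call was lost at 4.50 in a fit of its own arrays, which have fewer degrees of freedom. Scan day 1 gave 5.91 and 5.14 for variants 1 and 2 between areas of dissected thyroid and 0.54 for variant 1 after surgery in the central area, where scan day 2 gave 3.12 for the variant 1 area difference and -1.92 after surgery. The cause was not tested.

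Probes called between areas of dissected thyroid numbered 88, against 46 in Cy5 alone, 51 with median centring, 55 with no filter, 20 on the arrays compared and 213 without the weak arrays, a setting chosen after seeing the data. In normal thyroid 41 became 149 with median centring, 88 in the authors' deposited table, 79 on processed signals, 4 with no filter, 7 with the slide block and 107 without the weak arrays. Median centring placed the median log2 difference of all probes at -0.11 between areas of dissected and 0.23 between areas of normal thyroid, and at -0.13 in the central and 0.20 in the peripheral area after surgery. After surgery in the peripheral area 0 became 6 with median centring, 2 in the authors' deposited table, 2 on processed signals and 1 without the weak arrays.

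Leaving out 1 array at a time gave 47 to 182 called probes in dissected thyroid, the highest without dissected central 2 and 47 to 56 without dissected central 3, 4 or 5 or dissected peripheral 2, 3 or 5. It gave 1 to 78 in normal thyroid, the highest without dissected central 2 and the lowest without normal peripheral 2 or 3, and 0 to 1 after surgery in the central area. Values of variant 1 were 3.65 to 3.98 in normal thyroid, 0.98 to 1.08 there in Cy5 alone, and -3.17 to -1.90 in dissected and -2.88 to -2.56 in normal thyroid in Cy3 alone. Values of variant 2 in normal thyroid were 4.21 to 4.52, and 3.80 to 4.08 in Cy5 alone, where the call was lost without normal peripheral 1 or 3.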

Other observations

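The authors' deposited table of linear ratios, centred per probe, gave the same picture of Calca. For the variant 1 probe the authors' deposited table lists 5.15, 1, 18.4, 19.0 and 11.8 on dissected central 1 to 5 and 0.214 to 0.563 on dissected peripheral arrays. The authors' deposited table has 7.98 to 19.6 for it on normal central and 0.37 to 0.827 on normal peripheral arrays. This table keeps the spot on dissected central 1 that was left out above, and that array lay above every peripheral array. For the Calcb probe the authors' deposited table lists 0.937 to 4.54 on dissected central, 0.802 to 1 on dissected peripheral, 0.846 to 9.73 on normal central and 0.656 to 0.889 on normal peripheral arrays. With these values in the model the Calcb area difference was 1.23 in dissected (adjusted p = 0.740) and 1.77 in normal thyroid (adjusted p = 0.320), and was called in neither.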
